A study of Mus musculus with 9 samples.

Results

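The tumors described here are the vehicle tumors of a study of the mouse neuroblastoma line NB9464, given vehicle in place of drug, antibody and radiation. The 3 genes taken as tumor markers, Mycn, Hand2 and Prph, were abundant in them. Several genes that define noradrenergic neuroblasts, among them Th, Dbh and Chga, had no count, whereas most genes listed for the mesenchymal state were expressed. The tumors were chosen by their treatment label, and they are 3 of the 9 whole tumors in the series. The other 6 tumors received a Syk inhibitor and an antibody against PD-L1, with or without radiation, and no contrast with them is made here. According to the labels, 4000000 NB9464 cells were placed under the skin of wild-type C57BL/6 mice, and the mice were assigned to treatment once the tumors measured 250 mm3. The mice were young and of the same strain as the line, so host stroma, vessels and immune cells could enter the graft. NB9464 limits the model in 3 ways: it is 1 cell line, it grew under the skin and not in the adrenal gland or a sympathetic ganglion, and it derives from the TH-MYCN mouse, in which the rat tyrosine hydroxylase promoter drives a human MYCN transgene. RNA was measured in bulk from whole tumors, so fewer cells of a type and less RNA per cell cannot be told apart. The labels do not say that the 3 samples came from separate mice, and the SD given throughout is the spread between these samples.

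Neuroblastoma arises from the sympathetic branch of the neural crest. In the noradrenergic state of the tumor, transcription factors such as HAND2 and GATA3 keep the genes for catecholamine synthesis and neurite growth switched on. Another state, called mesenchymal, is known, in which PRRX1, YAP, TEAD, AP-1 and NOTCH factors go together with fibronectin, vimentin and other matrix genes. MYCN, a MYC family factor that drives growth and ribosome production, is amplified in a large share of high-risk cases. Tumors with MYCN amplification are known for few T cells and for macrophages as the main leukocyte.

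Libraries held 18594125, 22536863 and 18618245 estimated counts in replicates 1, 2 and 3, and between 19732 and 20574 symbols had a count in each. Of 54429 symbols, 30959 were at 0 in all 3 tumors. Values between tumors are counts per 1000000 counts of the library (CPM) after TMM scaling, a method that sets library sizes by the bulk of genes, and are listed in the order of replicates 1, 2 and 3. Values between genes are per-length levels in TPM, transcripts per 1000000 transcripts, for which counts were divided by exon length. A count of 0 allows up to 3 counts, or 0.132 to 0.163 CPM, and this floor covers counting error only.

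The transcriptome was broad. A mean of 1 CPM or more was reached by 13460 symbols and of 10 CPM or more by 9730. The 99 symbols at 1000 CPM or more took 19.9% of counts, the 2158 between 100 and 1000 CPM took 47.5%, and the 7473 between 10 and 100 CPM took 30.9%. The 10 most abundant symbols held 4.97 ± 0.215% of counts (SD, n = 3) and the 1000 most abundant held 50.9 ± 0.485%. The 25 protein-coding genes with the highest per-length levels lay between 4057 and 19263 TPM. Of these, 11 were encoded in the mitochondrial genome, led by mt-Atp6 and mt-Co1, and 10 were ribosomal proteins such as Rplp1 and Rpl38. The remaining 4 were Eef1a1, the factor that brings aminoacyl-tRNA to the ribosome (9878 TPM), Ptma, a small nuclear protein of dividing cells (9201 TPM), Ftl1, the ferritin light chain (4878 TPM), and the chaperone Hsp90ab1 (4236 TPM). Genes of translation, respiration and protein folding thus stood at the head of the ranking, as the rank and abundance plot shows.

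**Figure D1:**
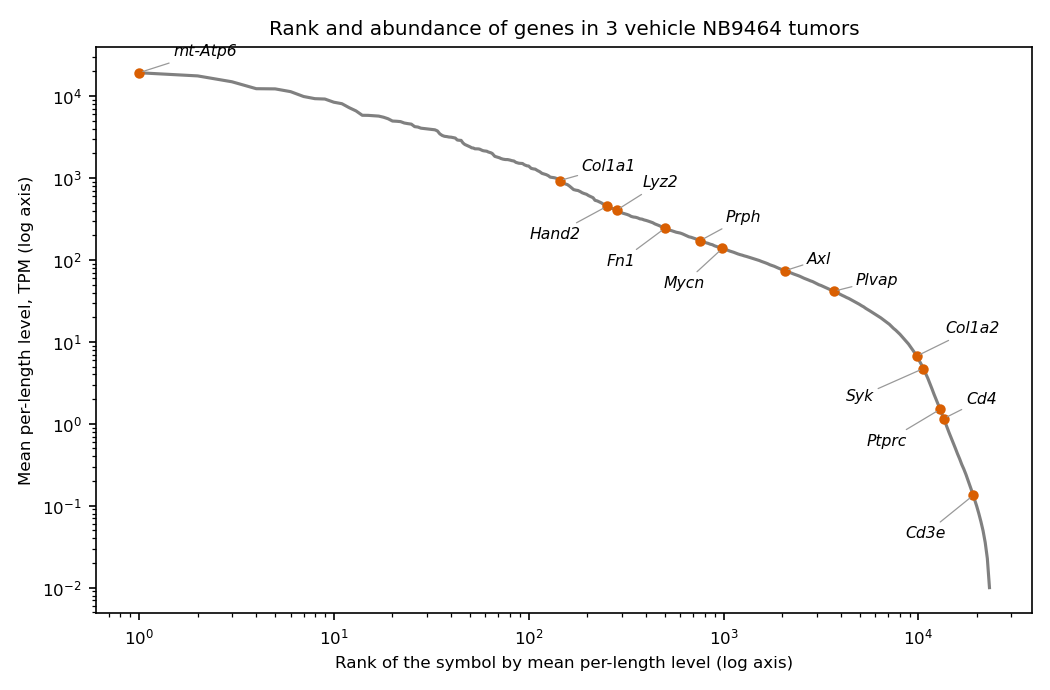
Each point of the grey curve is a symbol placed by its rank (horizontal axis, log) and its mean per-length level in TPM over the 3 vehicle tumors (vertical axis, log), and orange points mark named genes. Hand2 (451 TPM), Prph (173 TPM) and Mycn (138 TPM) lie on the upper part of the curve, whereas Syk (4.73 TPM), the leukocyte gene Ptprc (1.5 TPM) and the T cell gene Cd3e (0.134 TPM) lie on its falling part.

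The tumor markers Mycn, Hand2 and Prph were all abundant. Mycn (chromosome 12, 12936093 to 12941914 in mm10) was at 164, 180.2 and 126 CPM, with 3023, 4085 and 2341 counts. Its mean was 157 ± 28 CPM (SD, n = 3) and its per-length level of 138 TPM ranked 986 of 53851 symbols that had an exon length. All 3 tumors therefore carried much of this transcript, with replicate 3 lowest. A transcript of the human transgene resembles that of the mouse gene, and reads from it could have been counted under Mycn, so the 2 sources cannot be told apart. Its neighbours on chromosome 12 were also detected, Ddx1, an RNA helicase gene, at 223, 187 and 186 CPM and Nbas at 49.9, 50.8 and 40.6 CPM. The other family members were low, with Myc at 5.58, 5.43 and 4.72 CPM and Mycl at 1.08, 0.485 and 1.02 CPM. Per length, Mycn exceeded Myc 24.5-fold.

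Hand2, a basic helix-loop-helix factor of sympathetic neurons, heart and limb mesenchyme (chromosome 8, 57320983 to 57324633), was at 426, 319 and 351 CPM. Its mean was 365 ± 55 CPM (SD, n = 3) and its per-length level of 451 TPM ranked 252, above the other listed transcription factors of the sympathetic program. An exon of an antisense gene overlaps Hand2, and strandedness was not stated, so part of its count is uncertain. Prph, which encodes the intermediate filament peripherin of peripheral neurons (chromosome 15, 99055174 to 99058978), was at 81.6, 139 and 133 CPM. Its mean was 118 ± 31.6 CPM (SD, n = 3) and its per-length level 173 TPM, rank 760. Replicate 1 was the lowest tumor for Prph and the highest for Hand2.

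The start-site windows of Hand2 and Prph, which were expressed, and of Th, which was at 0 in all 3 tumors, are printed to show how they differ in sequence. Each runs from 250 bases before to 50 bases after the annotated start, read 5′ to 3′ on the gene's strand from RefSeq on build GRCm38.p6. Capitals mark matches to TATAAA (the TATA box) or to the cyclic AMP response element TGACGTCA. Hand2 lies on the plus strand of chr8:57320733-57321032, Prph on the plus strand of chr15:99054924-99055223 and Th on the minus strand of chr7:142899946-142900245.
Hand2: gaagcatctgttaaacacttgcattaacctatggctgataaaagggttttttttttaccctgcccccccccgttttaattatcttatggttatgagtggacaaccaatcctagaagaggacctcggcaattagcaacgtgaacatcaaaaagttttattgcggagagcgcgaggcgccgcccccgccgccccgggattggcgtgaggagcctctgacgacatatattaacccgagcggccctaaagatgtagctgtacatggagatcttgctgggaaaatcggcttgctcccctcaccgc
Prph: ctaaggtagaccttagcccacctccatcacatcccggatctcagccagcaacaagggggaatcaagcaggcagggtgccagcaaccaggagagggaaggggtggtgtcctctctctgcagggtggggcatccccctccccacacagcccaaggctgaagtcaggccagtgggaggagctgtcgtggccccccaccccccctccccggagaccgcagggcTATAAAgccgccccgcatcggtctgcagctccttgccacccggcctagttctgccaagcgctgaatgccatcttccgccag
Th: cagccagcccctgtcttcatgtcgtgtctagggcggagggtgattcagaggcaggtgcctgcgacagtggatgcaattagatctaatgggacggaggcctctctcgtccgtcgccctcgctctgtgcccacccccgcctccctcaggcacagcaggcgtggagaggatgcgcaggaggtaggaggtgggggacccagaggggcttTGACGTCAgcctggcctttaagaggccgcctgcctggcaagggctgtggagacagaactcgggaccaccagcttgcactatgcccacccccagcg
The Prph window held TATAAA beginning 31 bases before the start, and the Th window held TGACGTCA beginning 45 bases before it. The 2 motifs, searched on both strands and not overlapping each other here, were found in 13.6% and 1.79% of 32851 mouse windows of 300 bases. CACGTG, the E-box that MYC family dimers bind, was in none of the 3 windows nor in those of Mycn and Dbh, and in 7.15% of all windows. The windows of Hand2, Prph and Th held 17, 10 and 15 CpG dinucleotides, against a median of 7 over all windows. The number in Th, the gene without a count, lay between those of the 2 expressed genes.

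The wider sympathetic program was detected in part. Of 20 sympathetic transcription factors, Mycn and Hand2 among them, 9 reached 1 CPM, against 56.2% of all 21926 protein-coding genes in the table. In all 3 tumors 5 of the 20 were at 0, a share close to the 5580 at 0 among the 21926. The 5 included Isl1, a LIM homeobox factor of sympathetic neurons, Insm1, a zinc finger factor of neuroendocrine cells, and Hand1, the relative of Hand2. Phox2a had 2, 0 and 3 counts. For a gene at 0 this depth allows at most 0.163 CPM in any tumor. In the 9 libraries of the series, Isl1 had counts in 6, with a highest count of 80.

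The factors that were present, besides Mycn and Hand2, were mostly of broader use. Sox4, a SoxC factor of many embryonic progenitors, was at 330.1, 260.0 and 269.9 CPM. Tbx2, a T-box repressor, was at 19.2, 33.7 and 34.4 CPM and Eya1, a coactivator of homeobox factors, at 26.1, 38.6 and 34.7 CPM, both lowest in replicate 1. Tfap2a, a neural crest factor, was at 9.75, 8.07 and 9.87 CPM. Gata3, a core noradrenergic factor that T cells and mast cells also express, was uneven at 11.2, 0.176 and 2.95 CPM, with 206, 4 and 55 counts. Replicate 1 held most of it and replicate 2 almost none. Gata2, which mast cells share as well, was also highest in replicate 1, at 3.47, 1.24 and 1.39 CPM. The mast cell proteases Mcpt4 (63, 4 and 15 counts) and Cma1 (64, 2 and 11 counts) had the same order of tumors as Gata3, and their part in its level was not tested.

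Catecholamine synthesis was incomplete in all 3 tumors. Th, the rate-limiting enzyme (chromosome 7, 142892752 to 142931128), and Dbh and Pnmt, which turn dopamine into noradrenaline and adrenaline, were at 0. Ddc, which makes dopamine from L-DOPA and is not restricted to neurons, was at 19.3, 14.1 and 15.5 CPM. Slc18a2, the vesicular monoamine transporter, was at 2.28, 2.25 and 3.0 CPM, Slc18a1 at 0.0542, 1.63 and 0.429 CPM and Slc6a2, the noradrenaline transporter, at 0, 0.176 and 0.751 CPM. Catecholamine degradation was also represented, with Maoa, which is expressed in many tissues, at 38.3 TPM against 10.6 TPM for Ddc. Maoa was even at 55.5, 53.5 and 55.6 CPM. Cyb561, whose product passes electrons into secretory vesicles, was the leading member at 104 TPM. It was at 70.9, 166 and 153 CPM, with replicate 1 lowest. The granins and peptides were at or near 0: Chga and Vip had no count, and Chgb, Scg2, Scg3, Npy, Gal and Penk had at most 6 counts in any tumor. Of the 20 members, 6 reached 1 CPM, against 56.2% of all protein-coding genes.

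**Figure D2:**
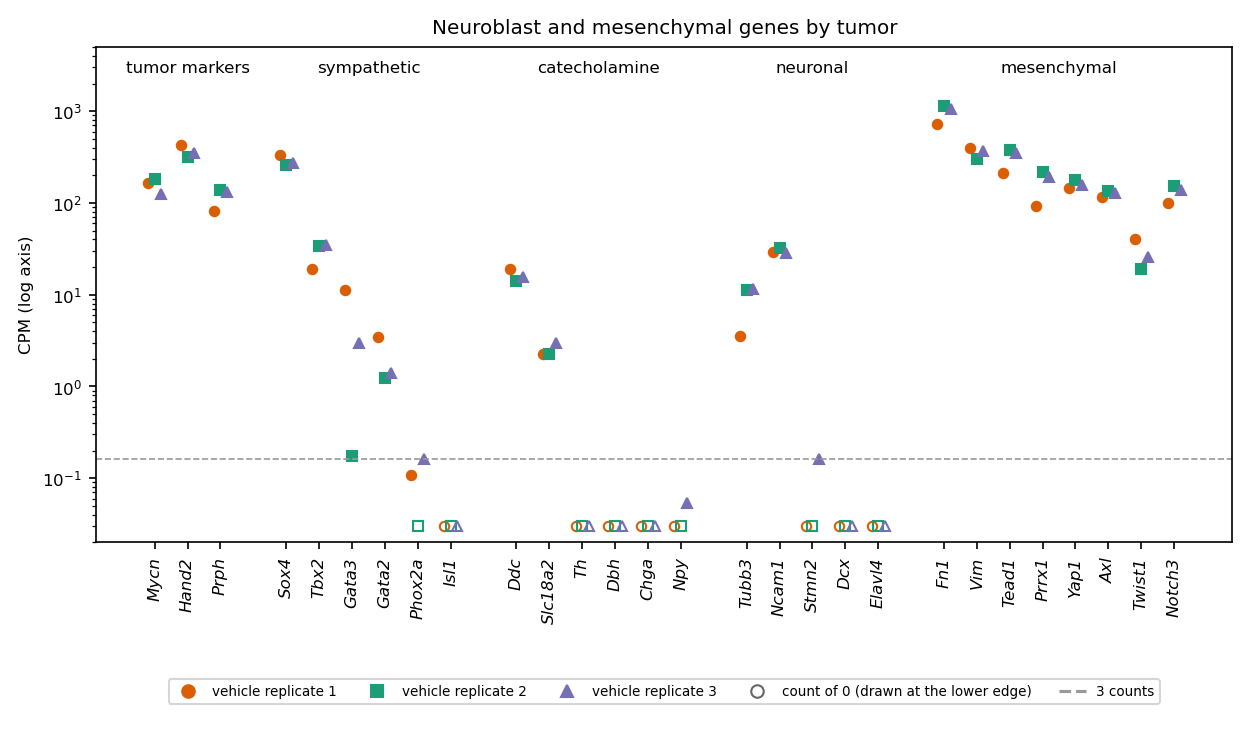
CPM (vertical axis, log) of genes of 5 groups in the 3 vehicle tumors, with open symbols for a count of 0, drawn at the lower edge, and a dashed line at 3 counts. Isl1, Th, Dbh, Chga, Dcx and Elavl4 are open in all 3 tumors, while the mesenchymal genes from Fn1 to Notch3 and the tumor markers stand at 18.9 CPM or more.

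Of 23 neuronal cytoskeleton genes, 10 reached 10 CPM and 6 were at 0 in all 3 tumors. These shares were close to those over all 21926 protein-coding genes, of which 9500 reached 10 CPM and 5580 were at 0. Besides Prph, the abundant members were Tuba1a, an alpha-tubulin prominent in neurons (488, 291 and 332 CPM), Stmn1, a microtubule destabiliser of neurons and dividing cells (489.9, 283 and 328 CPM), and Uchl1, a ubiquitin hydrolase and marker of neuronal and neuroendocrine cells (150.5, 62.2 and 78.5 CPM). These 3 besides Prph were highest in replicate 1. By contrast, Gap43, Map2, Nefm, Dcx, Elavl4 and Ina had no count, and Stmn2, Stmn3, Nefl, Nefh and Elavl3 had at most 6 in any tumor. Tubb3, the neuronal beta-tubulin, was at 3.58, 11.2 and 11.6 CPM and was lowest in replicate 1. Map1b, a microtubule protein of growing axons, was even at 65.7, 77 and 74.4 CPM. The 23 members summed to 1419, 961 and 1067 CPM, of which Tuba1a and Stmn1 made the larger part. In the list of 16 synapse and vesicle genes, 7 reached 1 CPM, against 56.2% of all protein-coding genes. Vamp2, a vesicle membrane protein, was at 31.4 TPM and 29.7, 48 and 44.9 CPM, and Snap25 and Rab3c were at 0.

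The receptors best known from neuroblastoma were at or near the floor. Alk, which is mutated in a share of neuroblastomas, had 1, 1 and 0 counts, and Ret had 3, 0 and 0. The neurotrophin receptors Ntrk2 and Ntrk3 had at most 4 counts in any tumor. The shared neurotrophin receptor Ngfr was detected at 10.5, 4.85 and 6.38 CPM and Gfra1, a GDNF co-receptor, at 36, 33.4 and 35.6 CPM. Ngfr was highest in replicate 1, and Gfra1 was even. The leading receptors per length were those of mesenchyme and epithelium, namely the collagen receptor Ddr1 (84.2 TPM), Pdgfrb (27.6 TPM) and Fgfr1 (25.6 TPM). Ddr1 was at 138, 134 and 142 CPM, Fgfr1 at 116, 64.5 and 81.5 CPM and Pdgfra at 30.9, 57.1 and 52 CPM. Ddr1 was nearly equal in the 3 tumors (CV 2.85%, the SD as a percentage of the mean), whereas Pdgfra was lowest and Fgfr1 highest in replicate 1.

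The 3 enzymes that lead to the ganglioside GD2, a surface target in neuroblastoma, were not all expressed. St3gal5, which makes the precursor GM3, was at 46, 26.9 and 31.4 CPM and B4galnt1, which completes GD2, at 37.1, 30.9 and 30.7 CPM. St8sia1, the GD3 synthase between them, had 3, 1 and 0 counts. Among protein targets, the checkpoint ligand Cd276 (B7-H3) was at 119, 97.9 and 103 CPM and 84.6 TPM, the adhesion molecule Ncam1 at 29.1, 32.6 and 28.7 CPM and Gpc2 at 1.73, 0.265 and 0.483 CPM. L1cam and Dlk1 stayed at 0.365 and 0.758 CPM on average. Cd24a, a surface glycoprotein of many immature cells, was uneven at 114, 33.2 and 51.7 CPM and highest in replicate 1.

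The mesenchymal set was expressed almost in full, with 19 of 20 members at 1 CPM or more and 8 at 100 CPM or more. Of all 21926 protein-coding genes, 56.2% reached 1 CPM and 2218 genes reached 100 CPM. Over these 20 members the median per-length level was 40.5 TPM, against 2.66 TPM over all protein-coding genes and 0.284 TPM over the sympathetic factors. Fn1, fibronectin, was at 731, 1124 and 1067 CPM (244 TPM) and Vim, the mesenchymal intermediate filament vimentin, at 396, 303 and 366 CPM (217 TPM). The Hippo pathway effectors followed, with Tead1 at 212, 375 and 350.0 CPM, Yap1 at 146, 177 and 155 CPM and Wwtr1 (TAZ) at 61.8, 92.5 and 87.2 CPM. All but Vim were lowest in replicate 1. Prrx1, a homeobox factor of the mesenchymal state, was at 92.3, 217 and 192 CPM, and the AP-1 factor Fosl2 at 84.3, 158 and 149.7 CPM. Notch3, a receptor of mural cells and of this state, was at 98.8, 154 and 139 CPM. Axl, a receptor kinase of mesenchymal cells, was at 117, 136 and 129 CPM. Within the list, 12 of the 19 expressed members were lowest in replicate 1, against 39.6% of all protein-coding genes at 1 CPM or more, and the sums were 2186, 2976 and 2870.3 CPM. Vim, the hyaluronan receptor gene Cd44 and the helix-loop-helix factors Twist1 (40.6, 18.9 and 25.9 CPM) and Twist2 (58.5, 36.4 and 41.4 CPM) were highest there. Fibroblasts, pericytes and other host mesenchyme express many of these genes, so the level in tumor cells and that in host cells cannot be told apart.

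Several other transcription factors, chosen after their values were seen, were detected beside them. Zeb1, a repressor of epithelial genes, was at 95.4, 352 and 386 CPM, lowest in replicate 1. The homeobox factor Meis1 was at 115, 89.5 and 97.3 CPM and Meis2 at 175, 135 and 131 CPM. Tbx3, Nr2f1, Gata6 and Sox9, factors of various mesenchymal and neural crest tissues, were between 23.1 and 51.6 CPM on average. Myod1 and Myog, the skeletal muscle factors, had at most 3 counts in a tumor. The epithelial genes Epcam, Krt8, Krt18 and Cdh1 were at 0, 0.313, 0.0361 and 0.506 CPM on average, and the N-cadherin gene Cdh2 at 2.49, 0.397 and 1.45 CPM. Schwann cell genes were also low: Sox10, the factor of neural crest and glia, had 4, 0 and 0 counts and S100b 0, 1 and 4, while Pmp22, which fibroblasts share, stood alone at 171, 103 and 120.2 CPM. In cells labelled as the neuroblastoma line NB9464, Mycn, Hand2 and Prph were thus abundant while Th, Dbh, Chga, Dcx and Elavl4 were at 0. The genes were chosen with earlier results of these data known, so their levels are no test of the label. The identity of the line was not tested.

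Genes that act with MYCN were present in all 3 tumors. Odc1, the polyamine enzyme that MYC factors induce, was at 444, 402 and 401 CPM and 355 TPM. Aurka, a mitotic kinase that stabilises the MYCN protein, was at 109.8, 111 and 109 CPM (CV 0.909%), Prmt5, an arginine methyltransferase, at 157, 141 and 138 CPM and Max, the dimer partner, at 87.2, 72.7 and 76.8 CPM. Lin28a, which blocks let-7, was at 0 and Lin28b at 2.11, 2.47 and 3.81 CPM. Of the let-7 targets, Hmga1 was at 115, 139.9 and 143 CPM, but Hmga2 and Igf2bp1 to Igf2bp3 stayed at 2.11, 0.771, 2.69 and 1.02 CPM on average.

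Proliferation genes were high, and their summed level was the most even of the 42 lists. All 28 cell cycle genes reached 1 CPM, against 56.2% of all protein-coding genes, and 20 reached 100 CPM, against 2218 of 21926. The cell cycle sums of 5323, 5239.9 and 5217 CPM differed by a highest-to-lowest ratio of 1.02. Pcna, the sliding clamp of DNA replication, was at 427, 324 and 328 CPM and Mcm6, a subunit of the replicative helicase, at 347, 334 and 337 CPM. Top2a, the topoisomerase of dividing cells, was at 558, 785 and 715 CPM and Mki67, the Ki-67 gene, at 251, 429.8 and 385 CPM. The long transcripts Top2a and Mki67 were lowest, and the short Pcna highest, in replicate 1. The D-type cyclins differed per length, with Ccnd1 at 106 TPM, Ccnd3 at 52 TPM and Ccnd2 at 0.623 TPM. Cdkn2a, the locus of the INK4a and ARF inhibitors, stood just below Pcna (435 TPM) per length at 426 TPM, with 220.4, 136 and 161 CPM. Cdkn1a, an inhibitor that p53 induces, was at 19.1, 30.7 and 26.9 CPM and Trp53 itself at 322, 266 and 295 CPM.

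Glycolytic genes stood among the most abundant of the transcriptome. Gapdh (2337 TPM), Pkm (1679.6 TPM), Ldha (1515 TPM), Eno1 (1502 TPM) and Aldoa (1454 TPM) led the list, whose sums were 16713, 14691 and 15282 CPM. Hypoxia targets were also detected. Bnip3, a mitophagy receptor, was at 153, 190.1 and 181 CPM and the glucose transporter Slc2a1 at 120.5, 142 and 151 CPM. The carbonic anhydrase Car9 was highest in replicate 1, at 36.4, 23.1 and 19.2 CPM. Hif1a, the oxygen-sensitive factor, was at 108, 155 and 135 CPM. Vegfa, its angiogenic target, was at 52.9, 112 and 96.3 CPM, and replicate 1 was the lowest tumor for both.

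A few imprinted and fetal growth genes dominated their list. H19, a maternally expressed non-coding RNA, was at 1260.5, 1429 and 1540.4 CPM and 1670.4 TPM, while Igf2, its paternally expressed neighbour that encodes a fetal growth factor, was at 17.9, 52.6 and 40.0 CPM and 18.9 TPM. Gnas, which encodes a G protein alpha subunit, was even at 1977, 2004 and 1994 CPM. Plagl1, a zinc finger factor, was at 502, 653 and 576 CPM and Peg10, derived from a retrotransposon, at 145, 146 and 144 CPM (CV 0.823%). The other members were low, with Dlk1, Meg3, Peg3, Ndn and Cdkn1c at 0.758, 0.937, 1.52, 0.277 and 1.03 CPM on average. Exons of H19, Gnas, Plagl1 and Igf2 overlap other annotated genes, so their counts are uncertain in that part. Insulin-like growth factor binding proteins, chosen after their values were seen, were abundant as well, with Igfbp4 at 3137, 3276 and 3430.4 CPM and Igfbp5 at 1988, 1270.5 and 1445 CPM.

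Matrix genes were strongly but unequally expressed. Of 22 fibroblast and matrix genes, 21 reached 1 CPM, against 56.2% of all protein-coding genes, and the sums were 6759.8, 5900.1 and 6133 CPM. Col1a1, the alpha-1 chain of collagen I (chromosome 11, 94936224 to 94953042), was at 2389, 1916 and 2001 CPM and 929.9 TPM. Its partner Col1a2 (chromosome 6, 4504814 to 4541544), which joins Col1a1 chains in the collagen I trimer, was at 42.8, 18.8 and 24.9 CPM and 6.71 TPM. Per length, Col1a1 exceeded Col1a2 by 106, 193 and 152 times in the 3 tumors. This gap was far wider than in other collagens made of paired chains, since Col6a1 exceeded Col6a2 2.81-fold, Col5a1 exceeded Col5a2 6.03-fold and Col4a2 exceeded Col4a1 6.07-fold on average.

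Col3a1 was at 1163, 894 and 955 CPM and Sparc, a matrix glycoprotein that binds collagen, at 742, 434 and 487 CPM. Dpt, dermatopontin, was uneven at 93.3, 26.6 and 37.2 CPM and Lum, lumican, ran the other way at 7.48, 27.4 and 21.4 CPM, with replicate 1 highest for the first and lowest for the second. Fibroblast markers were lower per length than Col3a1 (297 TPM). Postn, periostin, was at 20.2 TPM, Thy1 at 6.52 TPM, Fap, a protease of activated fibroblasts, at 2.27 TPM and Pi16, a gene of resting adventitial fibroblasts, at 1.2 TPM. Among 14 basement membrane genes, Col4a2 was at 518, 409.6 and 441 CPM, Hspg2 (perlecan) at 822, 823 and 732 CPM and Lamc1, the laminin gamma-1 chain, at 242, 274 and 252 CPM. Their sums of 2414, 2351 and 2315 CPM were nearly equal in the 3 tumors. Pericyte and smooth muscle genes summed to 416, 465 and 441 CPM. Des, the muscle filament desmin, led at 81 TPM and 72, 122 and 117 CPM. Rgs5, a pericyte gene, was at 17.5, 23.9 and 21.5 CPM and Acta2, smooth muscle actin, at 13.6, 7.41 and 9.01 CPM. Tagln, a smooth muscle actin-binding protein, was uneven at 43.4, 8.6 and 14.8 CPM and highest in replicate 1.

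Vessel genes were present at low levels, and the sums of the endothelial list were close. Of 22 endothelial genes, 19 reached 1 CPM, against 56.2% of all protein-coding genes, and none reached 100 CPM, against 2218 of 21926. The endothelial sums were 229, 212 and 227 CPM. Plvap, a protein of fenestrated capillaries, was at 31.9, 24.9 and 28.4 CPM (41.5 TPM), Cd34, which fibroblasts also express, at 79.7, 65.2 and 69.7 CPM and Ramp2 at 28.9, 21.4 and 26.5 CPM. Of the defining adhesion genes, Cdh5 was at 8.4, 14.2 and 12.5 CPM and Pecam1 at 14.2, 15.1 and 15.5 CPM. The VEGF receptor gene Kdr was at 6.83, 10.2 and 9.06 CPM and Flt1 at 7.75, 13.1 and 11.9 CPM. Pecam1 differed by a CV of 4.51%, while Cdh5, Kdr and Flt1 were all lowest in replicate 1. Of the ligands, Vegfb was at 66.3, 69 and 75.4 CPM, Vegfd at 11.2, 19.9 and 16.1 CPM and Angpt2, which loosens vessels, at 3.47, 3.93 and 3.59 CPM, with Angpt1 at 1, 3 and 0 counts. Lymphatic genes had fewer counts, with Lyve1 at 1.08, 1.19 and 1.77 CPM and Prox1, the lymphatic master factor, at 0.758, 2.25 and 2.41 CPM. Pdpn, which fibroblasts share, was at 18.3, 21.1 and 23.5 CPM.

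**Figure D3:**
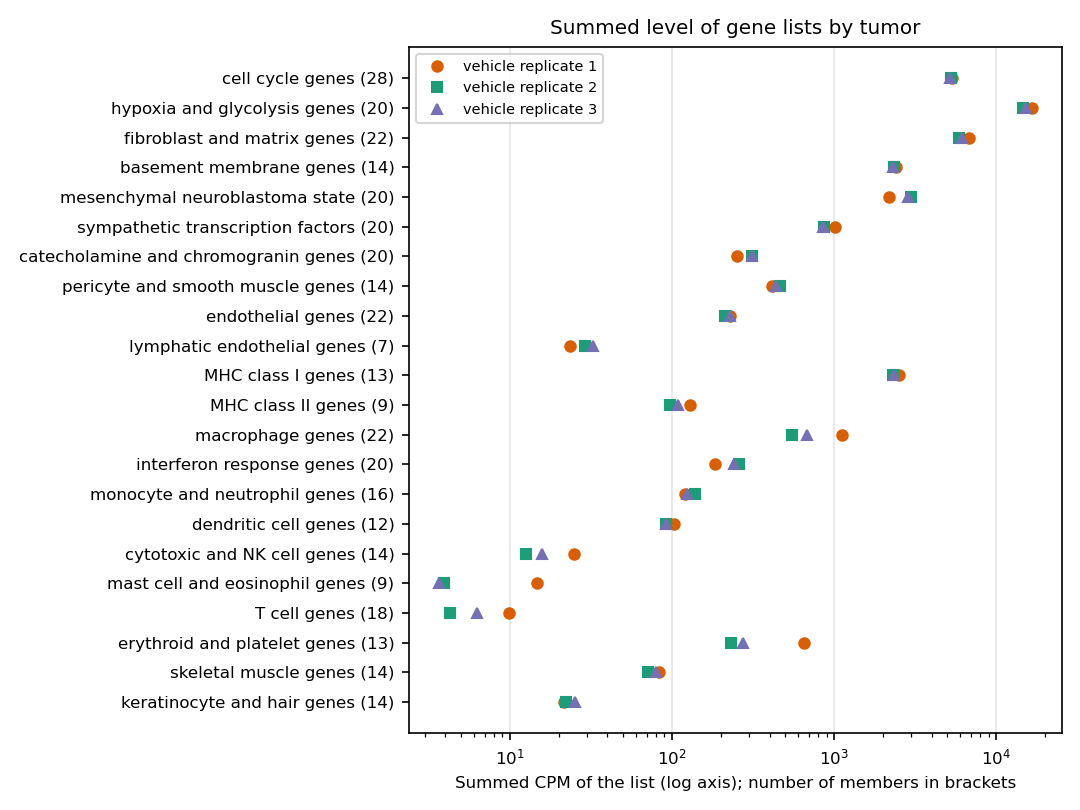
Summed CPM (horizontal axis, log) of 22 gene lists in each of the 3 vehicle tumors, with the number of members in brackets. The cell cycle sums nearly coincide, whereas replicate 1 stands to the right for macrophage (1126 CPM), erythroid and platelet (653 CPM) and mast cell and eosinophil genes (14.7 CPM), and T cell genes lie below 10 CPM in every tumor.

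Macrophage genes were detected more fully than those of the other listed leukocyte types. Of 22 macrophage genes 21 reached 1 CPM, against 56.2% of all protein-coding genes, and 14 reached 10 CPM, against 9500 of 21926. Lyz2, lysozyme, was at 280.1, 119 and 156 CPM (406 TPM), Apoe at 314, 143 and 184 CPM and C1qb, a chain of complement C1q, at 89.2, 34.8 and 42.5 CPM. The receptor genes were lower per length, with Csf1r, the receptor for macrophage growth factor, at 29.7, 17.5 and 22.4 CPM (11.6 TPM) and Adgre1 (F4/80) at 25.1, 7.81 and 11 CPM (13 TPM). Replicate 1 was highest for each of these 5 genes and replicate 2 lowest. The mannose receptor Mrc1 was at 44.1, 52.1 and 51.2 CPM and Mertk, a receptor for engulfing dead cells, at 18.4, 16 and 17.2 CPM, both with a CV under 10%. Itgam (CD11b) was lowest in replicate 1 at 7.15, 13.1 and 18.7 CPM. The pan-leukocyte gene Ptprc (CD45) was at 10.9, 7.81 and 9.71 CPM and 1.5 TPM. Lsp1, listed with it as a leukocyte gene, was at 126, 165 and 173 CPM and 87.2 TPM, far above Ptprc and with replicate 1 lowest.

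Syk, the kinase that the study's drug inhibits, was at 19, 14.1 and 12.8 CPM (4.73 TPM, rank 10603). Of the adaptors that recruit it, Tyrobp (DAP12) was at 18.6, 7.1 and 8.37 CPM and Fcer1g at 18.3, 9.57 and 10.5 CPM. Its substrate Plcg2 was at 43.3, 31.4 and 34.6 CPM. All 4 were highest in replicate 1. Of the genes for suppressive products, Arg1 was at 15.8, 16.7 and 16.1 CPM (CV 2.81%), Tgfb1 at 45.6, 40.2 and 38.9 CPM and Il10 at 3, 2 and 0 counts. The inflammatory cytokine Il1b, which the study counts as suppressive, was lowest in replicate 1. Il1b was at 1.08, 3.0 and 4.77 CPM. Of the genes for stimulation, Nos2 was at 1.3, 10.0 and 6.33 CPM and also lowest in replicate 1, Cd86 was at 1.25, 1.59 and 1.72 CPM, and Il12b had 2, 1 and 0 counts. Of the 17 genes of both kinds, 9 reached 1 CPM, a share near the 56.2% of all protein-coding genes.

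Most lymphocyte genes were low, and many were close to the floor. Of 18 T cell genes 2 reached 1 CPM, against 56.2% of all protein-coding genes. No count was seen for 3 of the 18 (Cd5, Trbc2 and Icos), and 7 had at most 3 counts in each tumor. Over all 21926 protein-coding genes, 5580 had no count and 7025 had at most 3 in each tumor. The T cell sums were 9.91, 4.28 and 6.27 CPM. Cd3e had 3, 3 and 5 counts, Cd3d 1, 0 and 0, Cd8a 3, 15 and 5 and Foxp3 2, 2 and 10. Cd4, which macrophages express too, was at 3.03, 0.882 and 0.965 CPM and Lck at 4.66, 1.59 and 2.84 CPM. Granzymes were higher per length (20.3 TPM for Gzmc and 5.53 TPM for Gzmb) than Cd3e (0.134 TPM). Gzmc was at 8.67, 4.81 and 5.31 CPM, Gzmb at 3.58, 1.5 and 3.16 CPM and perforin, Prf1, at 4.23, 2.78 and 2.25 CPM. Natural killer cell receptors were near the floor, since Ncr1 had 7, 0 and 0 counts and Klrb1c 4, 4 and 1. B cell genes were likewise low, with Ms4a1 at 4, 10 and 8 counts and Ighm at 6.01, 11 and 11.1 CPM, whereas Sdc1 and Xbp1 in that list were at 131 and 52.1 CPM and are widely expressed outside plasma cells.

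Genes of other leukocytes ranged from no count to 100 CPM or more. Of 16 monocyte and neutrophil genes 8, and of 12 dendritic cell genes 7, reached 1 CPM, near the 56.2% of all protein-coding genes. The first list summed to 120, 138 and 124 CPM. A single member at 100 CPM or more made most of that sum, and no other member reached 10 CPM, so the sum says little about the rest. The second summed to 103, 92.5 and 91.8 CPM, with only 2 members at 10 CPM or more. The neutrophil gene Ly6g had no count, S100a8 was at 0.596, 3.31 and 1.61 CPM and S100a9 at 0.867, 2.69 and 3.92 CPM, both lowest in replicate 1. Of the dendritic cell genes, Itgax was at 4.88, 4.68 and 5.47 CPM, Zbtb46 at 11.3, 10.4 and 11.5 CPM and Batf3 at 11.1, 8.82 and 9.06 CPM, but Xcr1, Clec9a and Flt3 had at most 7 counts in a tumor. Mast cell proteases were seen mainly in replicate 1, with Mcpt4 at 63, 4 and 15 counts, Cma1 at 64, 2 and 11 and Cpa3 at 52, 9 and 7.

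Antigen presentation and checkpoint genes were measured against this background. B2m, the light chain of MHC class I, was at 367, 259 and 279.9 CPM (1018 TPM), H2-D1 at 229, 145 and 167 CPM and H2-K1 at 32.6, 20.8 and 19.5 CPM, although reads of these heavy chain paralogs can be shared. All 3 were highest in replicate 1. The peptide transporter Tap1 was at 4.55, 2.56 and 1.5 CPM and the immunoproteasome subunit Psmb8 at 3.63, 2.6 and 2.95 CPM. Class II genes were lower per length than B2m, with Cd74, the invariant chain, at 76.6 TPM (50.5, 39.2 and 43.2 CPM) and H2-Ab1 at 17 TPM (15.8, 13 and 16.3 CPM). Their master factor Ciita was at 0.975, 0.397 and 0.912 CPM. Cd274, which encodes PD-L1, was at 2.6, 6.49 and 4.34 CPM, Pdcd1, its receptor, had 1, 8 and 0 counts and Ctla4 0, 3 and 0. Cd47, which signals against engulfment, was at 66.4, 45.4 and 47.2 CPM and its receptor Sirpa at 55.1, 20.3 and 31.4 CPM. All 20 interferon response genes reached 1 CPM, against 56.2% of all protein-coding genes, and 7 of them reached 10 CPM, against 9500 of all 21926. Irf1 led at 56.7, 39.7 and 42.5 CPM (33.7 TPM), and the chemokine Cxcl10 was at 1.57, 5.29 and 6.49 CPM. Irf1 was highest and Cxcl10 lowest in replicate 1.

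Tissue that could be carried over with the graft left few counts. Adipoq, the defining adipocyte gene, was at 0, as were Lep and Cidec, although Lpl, which macrophages share, was at 137, 66 and 75.7 CPM and Fabp4, which endothelium shares, at 17.6, 41.8 and 36.8 CPM. Of 14 keratinocyte genes 5 reached 1 CPM, against 56.2% of all protein-coding genes. Krt5 was at 7.37, 3.0 and 4.56 CPM and Krt14 at 0.217, 1.81 and 2.31 CPM, with Krt10 and Lor at 0. Of 14 skeletal muscle genes, Acta1 had 0, 8 and 4 counts and Ckm 24, 21 and 17, while Tnni2, a fast troponin, was at 71.5, 59.7 and 68.2 CPM without its partners. Blood left more: the beta-globin gene Hbb-bs was at 236, 76.8 and 96.7 CPM and the alpha-globin gene Hba-a2 at 188, 65.1 and 73.9 CPM, both highest in replicate 1. The 2 alpha-globin genes are near-identical copies, so the split of reads between them is uncertain. Y-linked genes were low in each tumor, with Ddx3y at 2.44, 1.72 and 2.41 CPM against 482, 508 and 489 CPM for its X-linked partner Ddx3x, and Xist was at 1.03, 0.221 and 0.161 CPM.

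The 3 tumors were not equally alike. Across the 13460 symbols at 1 CPM or more, log2 CPM of replicates 2 and 3 correlated at Pearson r = 0.985, against 0.968 for replicates 1 and 3 and 0.952 for replicates 1 and 2. These are correlations across genes of the same annotation and not across independent samples. A 2-fold or larger difference was found for 534 symbols between replicates 2 and 3, for 1161 between replicates 1 and 3 and for 1662 between replicates 1 and 2. The common biological coefficient of variation in edgeR, the typical spread of a gene beyond counting error, was 0.253. It was 0.14 without replicate 1, so this library stood apart from the other 2. Of 12320 protein-coding genes at 1 CPM or more, 7.35% were at least 1.5 times higher in replicate 1 than in both others and 7.25% at least 1.5 times lower.

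Read against these shares, several lists had most of their expressed members on the same side in replicate 1. Of the expressed macrophage genes, 11 of 21 were at least 1.5 times higher there than in both others, and the sums were 1126, 547 and 678 CPM. Erythroid and platelet genes were higher by that margin for 5 of 9, with sums of 653, 230.2 and 274 CPM. The mean of this sum was 386 CPM over 3 tumors and 252 CPM without replicate 1. Mast cell and eosinophil genes were higher for 4 of 5, and the mean of their sum was 7.44 CPM with and 3.79 CPM without replicate 1. Interferon response genes lay on the low side, with 11 of 20 at least 1.5 times lower in replicate 1. Ifit3, for instance, was at 1.79 CPM there and at 12.5 and 9.22 CPM in the others. Few cell cycle genes passed that margin, with 1 of 28 higher and 1 of 28 lower. By order alone, replicate 1 was the highest tumor for 20 of the 28, against 44.7% of protein-coding genes at 1 CPM or more.

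Technical measures moved with replicate 1 as well. Among 9483 protein-coding genes of the nuclear genome at 10 CPM or more, the quintile with the shortest transcripts (median 1544 bases) had a median ratio of 1.19 between replicate 1 and the mean of replicates 2 and 3. The quintile with the longest (median 6990 bases) had a median ratio of 0.828. Between replicates 2 and 3 the ratios in the same quintiles were 0.944 and 1.05. By GC content, the median ratio of replicate 1 was 0.934 in the lowest quintile and 1.08 in the highest. The expressed macrophage genes had a median transcript length of 1641 bases, the erythroid and platelet genes 703 bases, the interferon response genes 3005 bases and the mesenchymal genes 5282 bases. At the median of their members these lists differed 1.82-fold, 2.55-fold, 0.509-fold and 0.785-fold in replicate 1. The mitochondrial ribosomal RNAs took 0.0544% of counts in replicate 1 and 0.50% and 0.409% in the others. The part of transcript length, GC content and mitochondrial ribosomal RNA in these list differences was not tested.

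**Figure D4:**
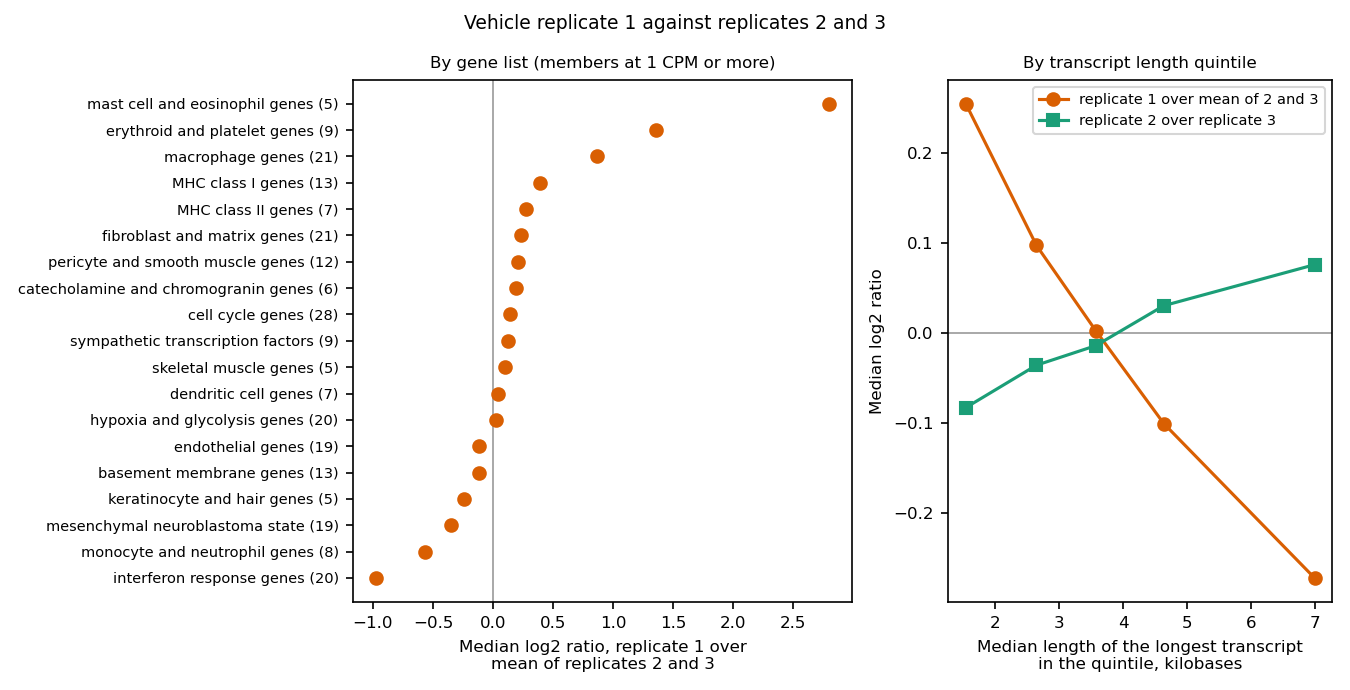
Median log2 ratio of replicate 1 to the mean of replicates 2 and 3. Left, a selection of the gene lists with at least 5 members at 1 CPM or more (number of such members in brackets). Right, quintiles of genes by length of the longest transcript (in kilobases), with the ratio of replicate 2 to replicate 3 for comparison. Mast cell, erythroid and macrophage genes lie above 0 and interferon response genes at -0.98. The median is 0.26 for the shortest and -0.27 for the longest quintile. Shifts were not limited to blood and immune cell lists. The median was 0.661 for GD2 synthesis and surface targets, 0.641 for neuronal cytoskeleton genes and 0.608 for Schwann cell genes. On the low side it was -0.349 for mesenchymal genes and -0.57 for monocyte and neutrophil genes.

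Mitochondrially encoded genes were the lowest in replicate 1 for 12 of 15 members, against 39.6% of protein-coding genes at 1 CPM or more, and 2 of 15 were at least 1.5 times lower than in both others, with sums of 35029.8, 46011 and 44214 CPM. The ribosomal RNAs mt-Rnr1 and mt-Rnr2 took part in that gap, with mt-Rnr1 at 267, 2299 and 1846 CPM and mt-Rnr2 at 281, 2671 and 2240.2 CPM. A different tumor stood out for mt-Co2, a subunit of cytochrome oxidase, which was at 4009, 2247 and 4319 CPM with replicate 2 lowest. The nuclear pseudogene Gm28661, chosen after its values were seen and of which all 651 stretches of 31 bases also occur in mt-Co2, was at 474, 3077 and 486 CPM with replicate 2 highest. The 2 summed to 4483, 5324 and 4805 CPM, and reads of the shared stretches cannot be assigned to either copy.

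Most genes were nevertheless close. All 3 tumors lay within a 1.5-fold range for 8834 symbols (65.6%), and 489 (3.63%) had a highest-to-lowest ratio of 4 or more. The latter number was 106 without replicate 1, 252 without replicate 2 and 394 without replicate 3. The median CV was 15%, and 7.56% without replicate 1. Among protein-coding genes at a mean of 100 CPM or more, the 10 most even were Jpt1, Glyr1, Imp4, Adam10, Sh3gl1, Immt, Ctdsp2, G3bp1, Trim37 and Rps26, with CVs of 0.186 to 0.66%. These are the smallest of many CVs, each from 3 tumors, and most lie below counting error. They therefore do not show that these genes are steadier than others. Jpt1, a microtubule-associated protein gene of dividing cells, was at 793, 792 and 795 CPM, and Adam10, a surface protease that cuts Notch, at 103, 103 and 104 CPM.

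The 20 protein-coding genes with the widest spread at a mean of 10 CPM or more were partly those that stood out in a single tumor. Greb1l, a regulator of retinoic acid signalling in kidney development, was at 18.6, 1065 and 11.6 CPM, a highest-to-lowest ratio of 91.9 that replicate 2 alone set. Its neighbours on chromosome 18 were even, with Rock1 at 69.8, 74.3 and 67.6 CPM and Esco1 at 34.3, 28.4 and 29.9 CPM. Fyb, an adaptor of T cells and platelets, was at 1.73, 2.16 and 43.8 CPM and high in replicate 3 alone, whereas its neighbour Rictor was at 36.5, 62.2 and 51.2 CPM and Dab2 at 40.5, 32.8 and 51.5 CPM. Phactr1, a regulator of actin and phosphatases, was high in replicate 2 alone at 3.74, 26.1 and 3.16 CPM. In the other 17 genes replicate 3 lay between replicates 1 and 2.

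Genes low in replicate 1 among the 20 were Lif, a cytokine of the IL-6 family (1.08, 25.6 and 13.1 CPM), Cd209c, a lectin gene (3.58, 36.2 and 29.2 CPM), Gpr50, an orphan receptor of the melatonin receptor family (12, 116 and 90.4 CPM), and Ptgs2, the inducible cyclooxygenase (5.42, 32.2 and 23.5 CPM), with Usp29, Adgrl2, Sned1 and Akap6. Genes high in replicate 1 were Pcp2, a Purkinje cell gene (30.1, 0.0882 and 4.72 CPM, 556, 2 and 88 counts), Large2, a glycosyltransferase of dystroglycan (46.1, 1.81 and 9.33 CPM), Rps27, a ribosomal protein with many processed copies in the genome (49.7, 4.76 and 8.26 CPM), Scx, the tendon factor scleraxis (26.8, 4.01 and 7.56 CPM), and Myb (19.2, 3.18 and 7.72 CPM), with Cxadr, Prr36, Rap1gap and Igfbp6. Replicate 1 was the highest tumor in 9 of the 20 genes and the lowest in 9, shares close to those over the 9349 genes from which they came, of which 44.6% were highest and 40.9% lowest there.

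**Figure D5:**
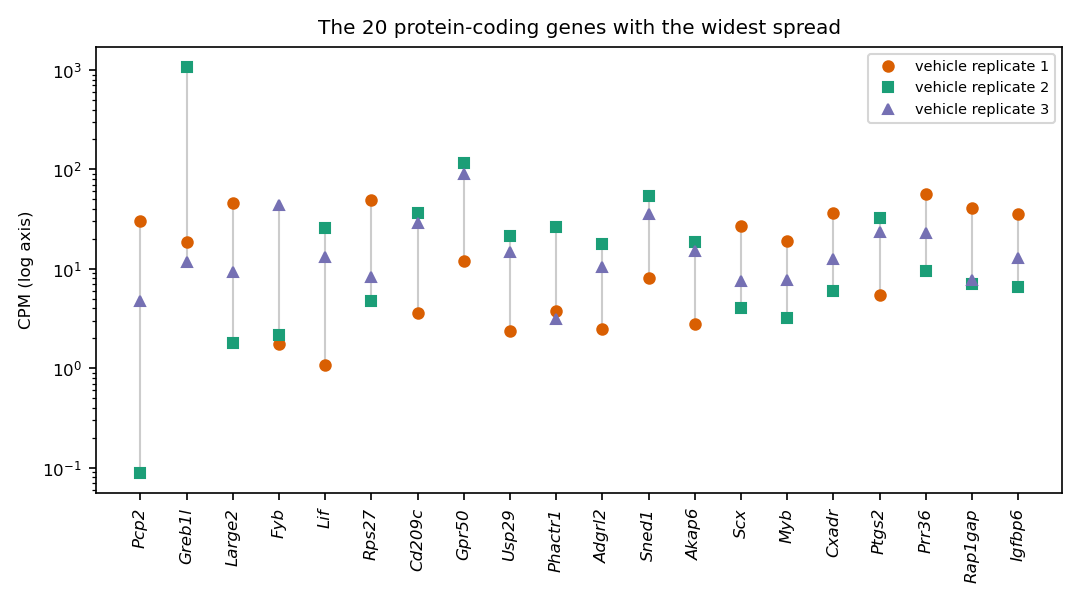
CPM (vertical axis, log) of the 20 protein-coding genes with the highest ratio between tumors at a mean of 10 CPM or more, 1 symbol per vehicle tumor. Greb1l stands alone at 1065 CPM in replicate 2 and Fyb at 43.8 CPM in replicate 3, while Pcp2 ranges from 0.0882 CPM in replicate 2 to 30.1 CPM in replicate 1.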

How the data were processed

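RNA-seq libraries of 9 whole tumors were deposited, and the 3 vehicle libraries were described here. The members and gene lists were chosen with earlier results of these data known. Reads were mapped by the authors with STAR 2.6.1d on build mm10 and quantified with Salmon 1.4.0 (versions from the submitters' processing notes). The deposited table holds expected counts per gene symbol, which were whole numbers and not normalized. The sources differ on 2 points. The labels give whole tumor as tissue but name macrophages in the extraction text, and they give paired reads where the methods give single reads. Libraries were enriched for poly(A) RNA, and strandedness was not stated, so counts of genes with overlapping exons (193 of 624 list members) are uncertain.

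All 9 sample columns were matched to samples by name. CPM used the TMM factors (0.993 to 1.01) of the 3 vehicle libraries in edgeR 4.0.16 (R 4.3.3), which also gave the common biological coefficient of variation, tested on simulated data. TPM values used union exon lengths of GENCODE M21, found for 98.9% of symbols. Promoter windows came from RefSeq. An exact paired permutation test of 3 tumors cannot give p under 0.25, so no test between genes was made. Named genes were list members, for each list mainly the 4 highest per length and the 2 with the highest CV, the 25 highest per length, the 20 widest and the 10 most even over all genes. Genes outside the rule were named after their values were seen. Predicted genes and Rik clones were skipped, except Gm28661, and some list members are not reported here. Alternatives were total-count and RLE scaling, the median dispersion of DESeq2 1.42.0, TMM over all 9 libraries, other filters, other gene lengths, protein-coding genes only, no mitochondrial genes, and leaving out each tumor.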

Additional observations from a re-analysis of the deposited data

How the results depend on the processing

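No paired analysis was possible because the report makes no test between groups, so the replicate numbers that the groups share were not used. Values were called unchanged when they moved by no more than 1 SD over the tumors (for the median CV and the coefficient of variation, over the values that leave out a tumor each), and counts when they stayed within 1.5 times. With a tumor left out, the common biological coefficient of variation was 0.140 to 0.325, the median CV 7.56% to 17.0% and the number of genes with a ratio of 4 or more 106 to 394, and each was lowest without replicate 1. The median DESeq2 dispersion gave a coefficient of 0.189. The number of genes with such a ratio was 917 at a mean of 0.5 CPM or more, 59 at 10 CPM or more and 7999 without a filter, and without a filter the median CV was 31.5%. Without mitochondrially encoded genes the 10, 100 and 1000 most abundant genes held 4.16%, 17.8% and 49.1% of counts, and the cell cycle and endothelial sums were 5489 and 233 CPM. The 100 most abundant protein-coding genes held 20.3%. With TMM factors from all 9 libraries the cell cycle sum was 5324 CPM. Hand2 ranked 232 among protein-coding genes and 342 by the length of the longest transcript. Of 954 alternative values for 159 named genes, 4 moved by more than 1 SD, those of Aurka, Gnas and Peg10. The cause of these shifts was not tested. Depth limits genes at 0 to statements below 0.163 CPM.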

Other observations

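Further lists were measured that belong to no section above. All 17 complement genes but Cfd, which had no count, were detected, and 15 reached 1 CPM, against 56.2% of all protein-coding genes. The C1q chains, products of macrophages, led per length, with C1qb at 147 TPM and C1qa at 119 TPM, and both were highest in replicate 1. C3, the central component, was lowest there at 50.3, 73.7 and 75 CPM, whereas C1ra, a protease of the C1 complex, was even at 40.5, 43.1 and 42.8 CPM.

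All 13 immediate early genes, which cells switch on within minutes of a stimulus, reached 1 CPM, against 56.2% of all protein-coding genes. The immediate early sums of 802, 834 and 847 CPM were close. Jund (389 TPM) and Jun (203 TPM), AP-1 subunits, led per length. Nr4a1, an orphan nuclear receptor, was the most uneven member at 19.2, 69.8 and 54.3 CPM, and Egr1, a zinc finger factor, was also lowest in replicate 1 at 60.7, 108 and 94.7 CPM.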
